A study of Gallus gallus with 6 samples.

Results

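Translation factors are the proteins that load messenger RNA and initiator tRNA on the ribosome, move the ribosome along the message and release the finished chain. The eukaryotic initiation factors (eIFs) act first. eIF4F binds the cap and unwinds the message, eIF3 and the eIF2 ternary complex bring the small subunit and the initiator tRNA, and eIF1, eIF1A, eIF5 and eIF5B select the start codon and join the large subunit. The elongation factors eEF1 and eEF2 then deliver aminoacyl-tRNA and translocate the ribosome, and the release factor eRF1 reads the stop codon. In many cells the supply of active eIF2 and of free eIF4E sets the rate of protein synthesis and is changed within minutes by phosphorylation, without a change in messenger RNA.

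The genes described here were chosen by symbol from the deposited count table, as those whose name begins with EIF1 to EIF6, EEF1 or EEF2, or is ETF1 or GSPT1, without the eIF2 kinases. The rule found 53 of 17262 genes. Of these, 52 had 10 or more counts in at least 3 libraries, and these 52 also passed the count filter of the test, each with at least 26 counts in every library. EIF4E1B, a germ cell form of the cap-binding protein, had 1, 5 and 4 counts at 1 h and 0, 3 and 2 counts at time 0 in replicates 1, 2 and 3, and was not described further. The table was searched by symbol only, so genes that gave no row were not analysed here. Among them were EIF2S3, EIF3C, EIF4A1, EIF5A, EIF6, EEF1E1, EEF1G and GSPT1.

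The RNA came from an ex vivo cataract surgery model in embryonic day 14 chick lenses, in which the fiber cell mass is removed and the capsule with its equatorial epithelium and resident immune cells is kept. The 3 libraries of the 1 h group were made from wounded explants flattened on a culture dish and cultured there for 1 h with serum. The 3 time 0 libraries were made from explants collected directly after wounding. Incisions into the equatorial epithelium, made before flattening, are described for the 1 h explants only. Each library was a pool of 6 explants, and no unwounded lens was among the samples. Time after wounding, the incisions, flattening and culture with serum therefore cannot be told apart. Culture of the 1 h explants alone follows the study's methods, while the growth protocol in the sample labels is the same text for all 6 samples.

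The libraries held 15386104 to 17673955 counts at 1 h and 13733581 to 15029343 counts at time 0. Levels are given as CPM, counts scaled to library size with TMM factors, and levels of different genes are compared only as CPM per kilobase of the deposited gene length. A gene is called higher or lower where edgeR's quasi-likelihood test gave an adjusted p under 0.05 (Benjamini-Hochberg, 12391 genes). Of 9 lens fiber markers, 8 were lower at 1 h (88.9%, against 12.0% of all genes tested). Their sum lay between 2394 and 2652 CPM at 1 h, against 3544 to 4315 CPM at time 0. Of 5 genes listed as markers of the lens epithelium, 3 were higher (60.0%, against 19.8% of all genes tested). These were PAX6, PROX1 and SOX2, while CDH1 and CDH2 had no call. The sum of the 5 lay between 2036 and 2151 CPM at 1 h, against 1502 to 1557 CPM at time 0. Whether these genes mark the epithelium alone in this tissue was not tested. Immune markers summed to 2.34 to 4.83 CPM at 1 h and 1.70 to 4.20 CPM at time 0, blood markers to 29.3 to 52.7 CPM at 1 h and 29.4 to 31.2 CPM at time 0, and pigmented epithelium markers to 1.46 to 2.35 CPM at 1 h and 1.77 to 3.34 CPM at time 0. The highest blood sum, 52.7 CPM, was that of 1 h replicate 1. ALAS2 lay between 25.2 and 29.4 CPM in all libraries. HBA1 had 309, 0 and 3 counts at 1 h and 29, 44 and 40 counts at time 0 in replicates 1, 2 and 3. HBM had 108, 2 and 0 counts at 1 h and 23, 21 and 8 counts at time 0. TYR and TYRP1 had no counts at 1 h and HBBR had none at time 0. The part of these markers in the results below was not tested, and in bulk RNA fewer cells of a type and less RNA per cell cannot be told apart.

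At 1 h post wounding, 5 of the 52 translation factor genes were higher and 6 were lower, and all but 1 of the 11 changes were below 0.5 on the log2 scale. The genes that rose were EIF1, EIF5 and EIF5B of start codon selection and subunit joining, the scaffold EIF4G1 and the release factor ETF1. The genes that fell were EIF2B2, EIF2D, EIF4EBP2, EEF1D and the methyltransferases EEF1AKMT1 and EEF1AKNMT. The 11 calls were 21.2% of the genes, against 31.8% of all genes tested. Calls in the higher direction made up 9.62% of them, against 19.8% of all genes tested, and calls in the lower direction 11.5%, against 12.0%. The median change was -0.016 on the log2 scale, against -0.006 over all genes tested, and the median absolute log2 fold change was 0.121, against 0.252. At the same time the median standard error (SE) of these genes was 0.0765, against 0.123 over all genes tested. Among genes with a mean of at least 100 CPM, a bound chosen after the values were seen, 7 of 33 translation factor genes (21.2%) and 612 of 1540 genes in all (39.7%) were called.

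**Figure D1:**
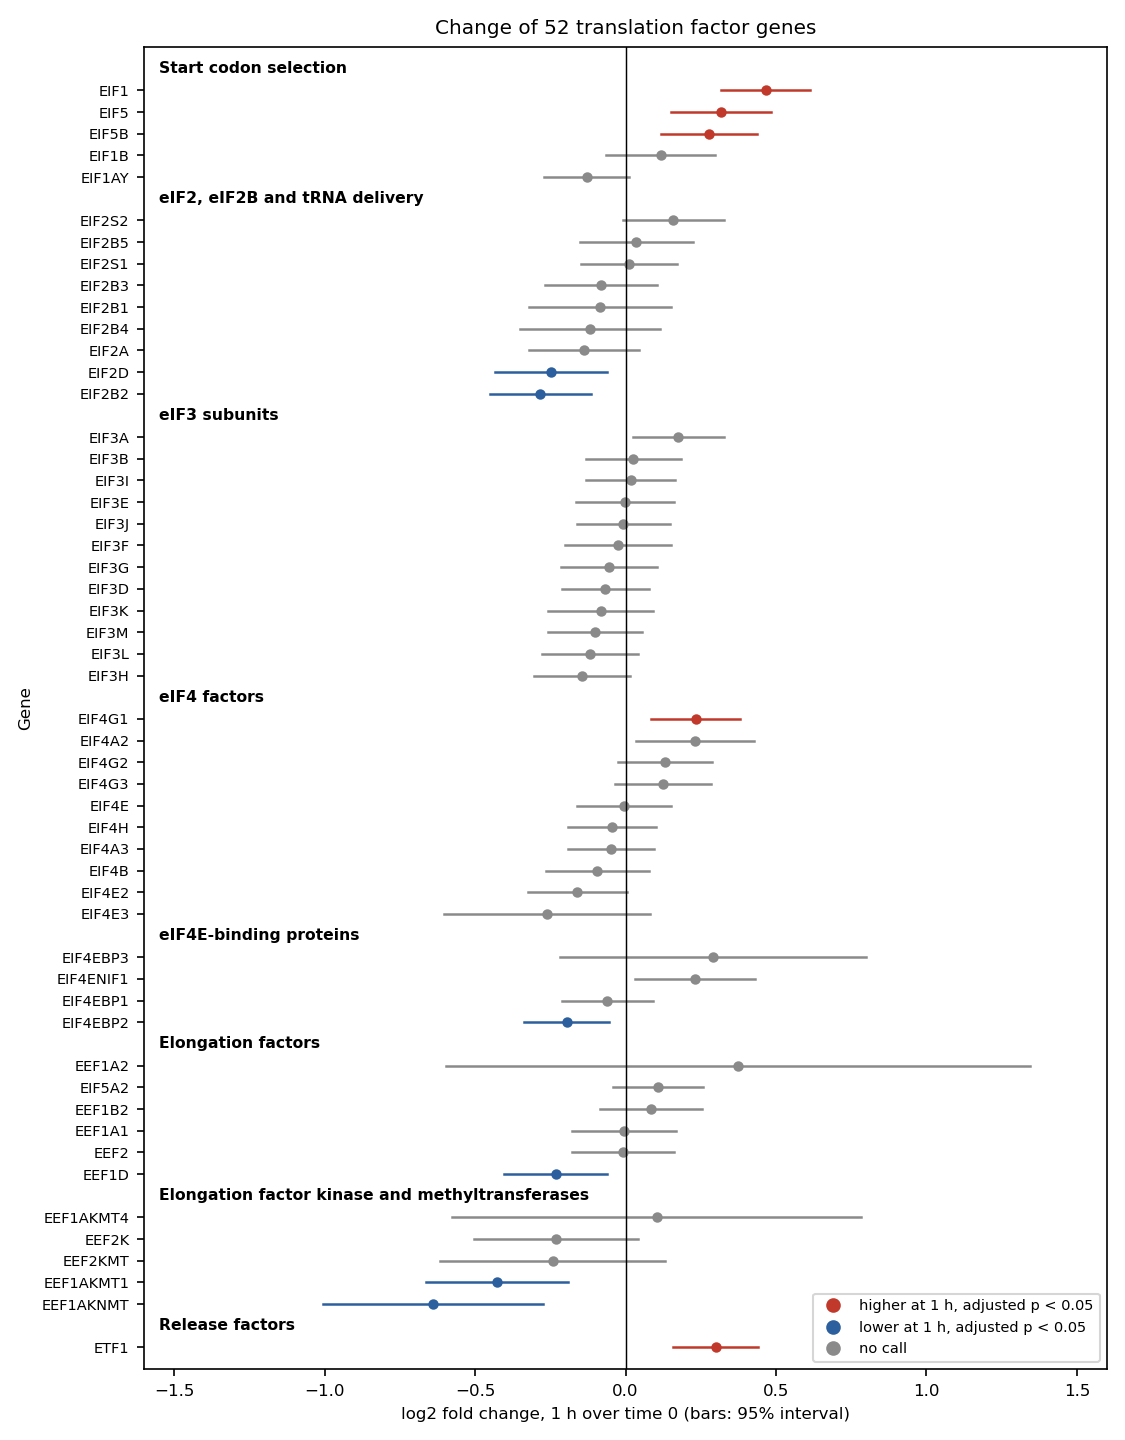
The log2 fold change of 1 h over time 0 (horizontal axis) is plotted for 52 translation factor genes, grouped by role and ordered by the change. Points are the edgeR estimates and bars their 95% intervals. EIF1 had the highest value with a call, 0.47, and EEF1AKNMT the lowest, -0.64, while the 12 eIF3 subunits lay between -0.14 and 0.18.

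The libraries of both time points did not overlap for 20 genes, 9 with all 1 h libraries above and 11 with all below. This is 38.5% of the 52 genes, against 46.7% of all genes tested, of which 25.4% lay above and 21.4% below. The counts of calls depended on the scaling. With upper-quartile normalization, which moved the median over all genes to -0.14 on the log2 scale and that of the translation factor genes to -0.151, EIF1 alone was called higher and 19 genes were called lower. None of the 11 called genes changed sign under any alternative run.

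Summed over the 52 genes, translation factors took 4.05%, 4.19% and 4.38% of all counts in 1 h replicates 1, 2 and 3, and 4.40%, 4.24% and 4.31% in the time 0 replicates, so that the groups overlapped. EEF1A1, the GTPase that carries aminoacyl-tRNA to the ribosome, supplied 51.7% to 53.1% of these counts at 1 h and 52.3% to 53.1% at time 0. Per gene length it ranked 6 among all genes tested at both time points.

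The 5 highest genes per gene length were the same at both time points, in the order EEF1A1, EEF2, EEF1D, EIF4A2 and EEF1B2. EEF1A1 had 6843 ± 457 CPM per kilobase at 1 h and 6861 ± 317 at time 0 (SD, n = 3 libraries each). EEF2, the translocase, followed with 1508 ± 92.9 at 1 h and 1516 ± 75.6 at time 0. The next places were closer to each other, with 569.3 ± 40.5 for EEF1D, 513.9 ± 60.2 for EIF4A2 and 436.0 ± 12.7 for EEF1B2 at 1 h, and 668.9 ± 34.2, 438.0 ± 21.4 and 411.3 ± 33.9 for the same genes at time 0. The SDs of EEF1D and EIF4A2 overlapped at 1 h, as did those of EIF4A2 and EEF1B2 at time 0. At the low end lay the methyltransferase EEF1AKMT4 with 3.02 ± 0.637 at 1 h and 2.82 ± 0.891 at time 0, and EEF1A2 with 3.47 ± 1.73 at 1 h and 2.67 ± 0.823 at time 0.

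**Figure D2:**
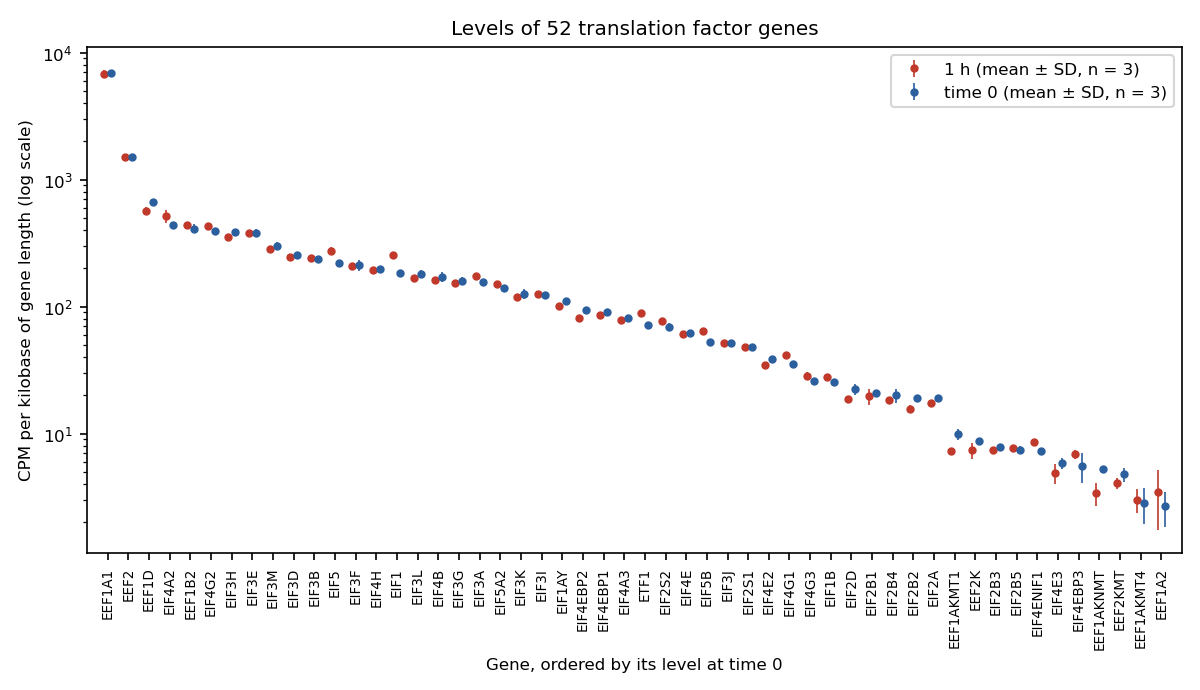
The level of each of the 52 genes in CPM per kilobase of gene length is plotted on a log axis, ordered by the level at time 0, as mean ± SD of 3 libraries. EEF1A1 lay at 6843 at 1 h and 6861 at time 0, and the order of the first 5 genes was the same at both time points.

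The group of start codon selection and subunit joining held 3 of the 5 increases. Of its 5 genes, 60.0% were called higher, against 19.8% of all genes tested. With upper-quartile normalization 1 of them, EIF1, was called higher and 1, EIF1AY, lower (-0.264, adjusted p = 0.00655). EIF1 (ENSGALG00000028517, chromosome 27 from 7456332 to 7463267 in the authors' table, for which no genome build is named) keeps the scanning ribosome open until the start codon is met. It had 390.7, 372.9 and 405.4 CPM at 1 h and 288.2, 273.9 and 284.5 CPM at time 0. All 1 h libraries lay above all time 0 libraries, and the smallest of them exceeded the largest at time 0 by more than the spread within either group. The log2 fold change of 0.47 (SE 0.068, adjusted p = 0.000269) corresponds to 1.38-fold, and EIF1 was called in all 14 alternatives. Its paralog EIF1B, without a call, had a value of 0.12 (SE 0.084, adjusted p = 0.313), with a 95% interval from -0.066 to 0.299.

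EIF5 (ENSGALG00000011464, chromosome 5 from 50410078 to 50417416) activates the GTPase of eIF2 at the start codon. It had 583.6, 532.2 and 622.9 CPM at 1 h and 465.4, 477.9 and 451.3 CPM at time 0, so the groups did not overlap. It rose by 0.32 on the log2 scale (SE 0.076, adjusted p = 0.00754), and the call was lost without 1 h replicate 3 (0.24, adjusted p = 0.0613). EIF5B (ENSGALG00000016764, chromosome 1 from 133860171 to 133890836), the GTPase that joins the large subunit, had 300.2, 276.4 and 275.0 CPM at 1 h and 243.3, 218.0 and 241.3 CPM at time 0. Its increase of 0.28 (SE 0.074, adjusted p = 0.0134) was again free of overlap, and it lost its call without 1 h replicate 1 (0.22, adjusted p = 0.0682). The gene with the symbol EIF1AY lies on chromosome 1 in this table and encodes an eIF1A, a partner of eIF1 in scanning. Its log2 fold change was -0.13 (SE 0.065, adjusted p = 0.147), with 200.9, 198.2 and 192.4 CPM at 1 h, each below the 220.3, 212.8 and 213.9 CPM at time 0.

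ETF1 (ENSGALG00000002262, chromosome 13 from 3538939 to 3563502) encodes eRF1, which recognises stop codons and ends translation. It had 184.5, 183.8 and 187.8 CPM at 1 h and 147.1, 155.1 and 149.8 CPM at time 0, with narrow groups that lay apart. It rose by 0.30 (SE 0.065, adjusted p = 0.00422), and the call held without any single library, where the change lay between 0.27 and 0.32.

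**Figure D3:**
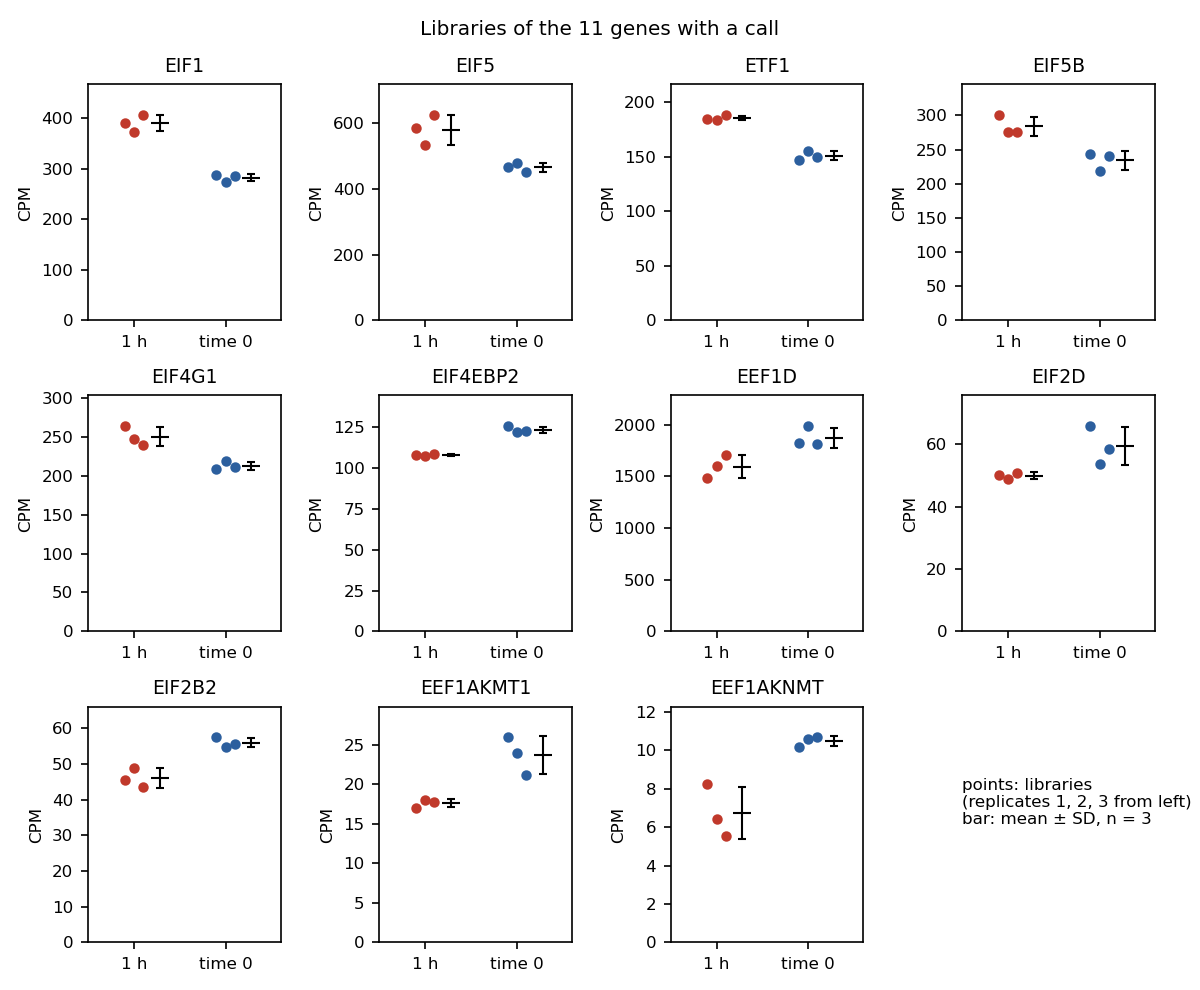
CPM in each library is plotted for the 11 genes with a call, 1 h left of time 0, with points for replicates 1, 2 and 3 and a bar for mean ± SD. In every panel the 1 h libraries lie all above or all below the time 0 libraries, for example 183.8 to 187.8 CPM at 1 h against 147.1 to 155.1 CPM at time 0 for ETF1. The genes were chosen by the test on these same libraries, so this lack of overlap is no separate result. Of all genes tested, 46.7% had no overlap.

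Of the 9 genes of eIF2, eIF2B and tRNA delivery, 2 were called (22.2%, against 31.8% of all genes tested). Both were lower, a direction called in 12.0% of all genes tested. The genes of eIF2 itself, which carries the initiator tRNA, had log2 fold changes of 0.011 for EIF2S1 (SE 0.073, adjusted p = 0.929) and 0.16 for EIF2S2 (SE 0.077, adjusted p = 0.136). eIF2B is the exchange factor that reloads eIF2 with GTP, and 1 of its 5 subunits was called. EIF2B2 (ENSGALG00000010301, chromosome 5 from 38330614 to 38342339), a regulatory subunit, had 45.4, 48.97 and 43.5 CPM at 1 h and 57.4, 54.8 and 55.6 CPM at time 0, and fell by 0.28 without overlap (SE 0.077, adjusted p = 0.0149). This call was lost without 1 h replicate 3 (adjusted p = 0.0519). The other subunits, EIF2B1, EIF2B3, EIF2B4 and the catalytic EIF2B5, had log2 fold changes between -0.12 and 0.036 and adjusted p of at least 0.434.

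EIF2D (ENSGALG00000000856, chromosome 26 from 2507117 to 2516979), which can deliver tRNA without GTP and acts in ribosome recycling, had 50.2, 48.7 and 50.8 CPM at 1 h and 65.8, 53.7 and 58.5 CPM at time 0. Although the groups did not overlap, time 0 replicate 2 lay close to the 1 h libraries, and the decrease of 0.25 (SE 0.086, adjusted p = 0.0455) was called in 6 of 14 alternatives. The log2 fold change of EIF2A, a separate factor with a similar name, was -0.14 (SE 0.084, adjusted p = 0.235).

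The eIF3 complex, which bridges the small subunit and eIF4F, had the smallest median absolute log2 fold change of the role groups, 0.061. None of the 12 subunits in the table was called in the edgeR test, against 31.8% of all genes tested. In DESeq2's Wald test none was called either (0 of 12), and 1 of 12, EIF3A, had an unadjusted p under 0.05 in edgeR. Their log2 fold changes ran from -0.14 for EIF3H to 0.18 for EIF3A, and the 95% intervals of all 12 lay between -0.303 and 0.327. EIF3A, the largest subunit, had 755.9, 764.4 and 798.1 CPM at 1 h and 719.2, 670.7 and 662.9 CPM at time 0, without overlap (SE 0.07, adjusted p = 0.0736). EIF3H ran the other way, with 404.1, 442.2 and 448.8 CPM at 1 h and 496.1, 481.0 and 453.7 CPM at time 0 (SE 0.073, adjusted p = 0.155). It was called lower with library totals (adjusted p = 0.0426), and with upper-quartile normalization 5 subunits were. The values of EIF3B, EIF3E, EIF3F, EIF3I and EIF3J were within 0.03 of 0.

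Subunits of this complex differed more in level than in change. Per kilobase, EIF3H and EIF3E led at time 0 with 387.7 ± 17.5 and 381.7 ± 27.5 CPM, and the loosely bound EIF3J was lowest with 51.99 ± 2.71. At 1 h the corresponding values were 351.0 ± 19.6, 381.4 ± 12.6 and 51.7 ± 1.5. The SDs of EIF3H and EIF3E overlapped at both time points.

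Of the eIF4 factors, 1 of 10 was called (10.0%, against 31.8% of all genes tested and 19.8% in the higher direction). EIF4G1 (ENSGALG00000008520, chromosome 9 from 16051651 to 16069156), the scaffold that joins cap-binding protein, helicase and eIF3, had 263.4, 247.2 and 239.5 CPM at 1 h and 208.2, 218.4 and 211.5 CPM at time 0. Its increase of 0.23 (SE 0.068, adjusted p = 0.0217) was kept in 7 of 14 alternatives and, with a library left out, only without time 0 replicate 2. The other scaffolds had no call, with 0.13 for EIF4G2 (adjusted p = 0.180) and 0.13 for EIF4G3 (adjusted p = 0.215). EIF4A2, an RNA helicase of eIF4F, had 962.7, 1103 and 1219 CPM at 1 h and 985.5, 911.1 and 902.4 CPM at time 0. In 1 h replicate 1 it lay within the time 0 range, and its log2 fold change of 0.23 (SE 0.09, adjusted p = 0.0699) was called only when that library was left out (0.30, adjusted p = 0.0268).

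The cap-binding protein EIF4E had a log2 fold change of -0.0051 (SE 0.072, 95% interval from -0.162 to 0.151). EIF4E2, a cap-binding protein that represses its targets, had a value of -0.16 (adjusted p = 0.127) and the low EIF4E3 one of -0.26 (SE 0.16, adjusted p = 0.227). The helicase cofactors EIF4B and EIF4H and the exon junction helicase EIF4A3 lay between -0.094 and -0.045 without a call.

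Among the 4 proteins that bind eIF4E, EIF4EBP2 alone was called (25.0%, against 31.8% of all genes tested and 12.0% in the lower direction). It belongs to the 4E-binding proteins, which hold eIF4E away from the scaffold until mTOR phosphorylates them. EIF4EBP2 (ENSGALG00000037904, chromosome 6 from 12236270 to 12237861) had 108.0, 107.2 and 108.5 CPM at 1 h and 125.7, 121.9 and 123.1 CPM at time 0. The groups were narrow and apart, and the gene fell by 0.20 (SE 0.064, adjusted p = 0.0362). The call remained without time 0 replicate 2 but was lost when any of the other 5 libraries was left out, with adjusted p of 0.0528 to 0.0911. No call was made for EIF4EBP1, at -0.06 (adjusted p = 0.541), or for the low EIF4EBP3, at 0.29 (SE 0.23, adjusted p = 0.369). EIF4ENIF1, which carries eIF4E into the nucleus, had 26.2, 25.7 and 24.7 CPM at 1 h and 21.5, 22.3 and 21.6 CPM at time 0, without overlap, but at a log2 fold change of 0.23 its adjusted p was 0.0747.

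Of 6 elongation factors, 1 was called (16.7%, against 31.8% of all genes tested and 12.0% in the lower direction). The most abundant, EEF1A1 and EEF2, did not shift detectably. EEF1A1 had 21050, 22100 and 24000 CPM at 1 h and 23640, 21780 and 21910 CPM at time 0, and EEF2 had 5075, 5436 and 5742 CPM at 1 h and 5661, 5141 and 5538 CPM at time 0. For both the libraries of the time points were interleaved, with 1 h replicate 1 lowest and 1 h replicate 3 highest of all 6. The log2 fold changes were -0.0037 for EEF1A1 (SE 0.079, 95% interval from -0.177 to 0.169) and -0.0077 for EEF2 (SE 0.077, 95% interval from -0.177 to 0.161). The ratio of EEF1A1 to EEF2 per kilobase was 4.54 ± 0.0655 at 1 h and 4.53 ± 0.162 at time 0.

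The exchange factors of eEF1A, which reload it with GTP, included 1 gene with a call. EEF1D (ENSGALG00000040098, chromosome 2 from 148865563 to 148883104) had 1479, 1595 and 1706 CPM at 1 h and 1818, 1983 and 1816 CPM at time 0, without overlap, and fell by 0.23 (SE 0.078, adjusted p = 0.0398). It kept its call in 8 of 14 alternatives and, among the fits that left out a library, only without 1 h replicate 3. EEF1B2 had 1192, 1199 and 1257 CPM at 1 h and 1223, 1042 and 1177 CPM at time 0, with overlap, and a log2 fold change of 0.084 (SE 0.078, adjusted p = 0.441). The difference between EEF1D and EEF1B2 was not tested. EIF5A2, which helps the ribosome through difficult peptide bonds and carries the modified residue hypusine, had a log2 fold change of 0.11 (adjusted p = 0.248).

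The largest decreases belonged to enzymes that modify elongation factors, of which 2 of 5 were called lower (40.0%, against 12.0% of all genes tested). The other 3 had no call, and all 5 of these genes ranked 42 or lower in level among the 52. EEF1AKNMT (ENSGALG00000003206, chromosome 8 from 5082577 to 5087008), a methyltransferase of eEF1A, had 8.23, 6.45 and 5.55 CPM at 1 h and 10.2, 10.6 and 10.7 CPM at time 0. It fell by 0.64 on the log2 scale (SE 0.17, adjusted p = 0.0124), to 0.641-fold, with the 1 h libraries spread more widely than those at time 0. EEF1AKMT1 (ENSGALG00000017133, chromosome 1 from 180122191 to 180131960), a lysine methyltransferase of eEF1A, had 17.04, 18.1 and 17.7 CPM at 1 h and 26.0, 23.9 and 21.2 CPM at time 0, and fell by 0.43 (SE 0.11, adjusted p = 0.0102). Both were called in all 14 alternatives. EEF2K, the kinase that inhibits eEF2, had a value of -0.23 (SE 0.12, adjusted p = 0.182) and EEF2KMT, a methyltransferase of eEF2, one of -0.24 (SE 0.17, adjusted p = 0.305). EEF1AKMT4 had 26 to 43 counts per library and a 95% interval from -0.577 to 0.784.

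Several factors exist as paralogs, and for 5 families the share of each member was computed per library from CPM per kilobase. The planned shares of EIF4A2 and EIF5A2 were not computed, because EIF4A1 and EIF5A gave no row. How reads shared by similar paralogs were counted was not examined, which makes the shares uncertain, the lower ones above all. EIF1 made up 89.7%, 90% and 90.8% of EIF1 with EIF1B at 1 h, and 87.4%, 87.9% and 88.1% at time 0, without overlap and with means 2.35 percentage points apart. EIF4G2, a scaffold without the eIF4E-binding site, made up 86.0 ± 0.605% of the EIF4G family at 1 h and 86.4 ± 0.736% at time 0, while EIF4G1 made up 8.32 ± 0.715% at 1 h and 7.80 ± 0.433% at time 0. EIF4EBP1 and EIF4EBP2 were nearly equal, with 49.4 ± 1.26% and 46.7 ± 0.972% of their family at 1 h and 47.6 ± 0.791% and 49.5 ± 0.580% at time 0, and the libraries of the time points did not overlap for either.

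EIF4E made up 58.6%, 60.4% and 62.9% of its family at 1 h and 58.9%, 57.7% and 57.1% at time 0. EEF1A2, the form of muscle and neurons in mammals, made up 0.0502 ± 0.0231% of eEF1A at 1 h and 0.0393 ± 0.0133% at time 0. In two-sided exact permutation tests of 14 shares over the 6 libraries, 5 shares reached p = 0.1, the smallest value that 3 against 3 libraries allow, and after Benjamini-Hochberg adjustment this was 0.28. They were the shares of EIF1 and EIF1B and of EIF4EBP1, EIF4EBP2 and EIF4EBP3. Shares within a family depend on each other, so these are not separate results.

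Beside the factors themselves, 59 genes that regulate, modify or assist them were listed by role, of which 49 had a row under their symbol and were tested. Of these 8 were higher (16.3%, against 19.8% of all genes tested) and 6 lower (12.2%, against 12.0%) at 1 h, and their median log2 fold change was -0.045. Together 28.6% were called, against 31.8% of all genes tested. By the fixed bound of 1 on the log2 scale, 2 stood out. EIF2AK3 encodes PERK, the kinase of the endoplasmic reticulum that phosphorylates eIF2 and so inhibits eIF2B. It had 165.7, 154.1 and 176.6 CPM at 1 h and 21.6, 19.9 and 23.5 CPM at time 0, 7.65-fold higher (log2 fold change 2.93, SE 0.089, adjusted p = 4.64e-10). SESN2, a stress-induced inhibitor of mTOR signaling, had 59.1, 56.9 and 49.3 CPM at 1 h and 9.81, 9.64 and 9.37 CPM at time 0, 5.73-fold higher (log2 fold change 2.52, SE 0.10, adjusted p = 4.54e-09).

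The other genes named here from this list were chosen after their values were seen. Of 4 eIF2 kinases, 2 were called higher (50.0%, against 19.8% of all genes tested), EIF2AK3 among them. The phosphatase subunits PPP1R15A and PPP1R15B, listed with the kinases, gave no row under their symbols. EIF2AK2, which senses double-stranded RNA, rose by 0.65 (adjusted p = 0.0052), while EIF2AK1 and EIF2AK4 had values of -0.0087 and 0.054 without a call. In the mTOR arm, 41.7% of 12 genes were called, against 31.8% of all genes tested, SESN2 among them. The other 7 genes had no call, and the median log2 fold change of the arm was 0.008. RPTOR and RHEB rose by 0.39 each (adjusted p = 0.00472 and 0.00625), MTOR fell by 0.33 (adjusted p = 0.0165), and DDIT4, an inhibitor of mTOR, fell by 0.80 (adjusted p = 0.00552). Of both lower calls in this arm, 1 was left without 1 h replicate 3 and without time 0 replicate 2. Of 11 partners at the message, 27.3% were called, against 31.8% of all genes tested. DDX3X, a helicase used by structured leaders, rose by 0.95 (adjusted p = 1.19e-06) and LARP4 by 0.44 (adjusted p = 0.00191), whereas the poly(A)-binding protein PABPC1 had a value of -0.033 (adjusted p = 0.844). PAIP1, which binds PABPC1, fell by 0.24 (adjusted p = 0.0472), a call that was lost in DESeq2's Wald test, without robust estimation, and without 1 h replicate 2, 1 h replicate 3, time 0 replicate 1 or time 0 replicate 2.

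Of 6 genes tested for modification of eIF5A and eEF2, 2 were called (33.3%, against 31.8% of all genes tested). Both were lower, a direction called in 12.0% of all genes tested. They were the hypusine enzyme DOHH with -0.25 (adjusted p = 0.0273) and the diphthamide enzyme DPH7 with -0.30 (adjusted p = 0.0081). Without 1 h replicate 2 or without time 0 replicate 1, 1 of the 6 was called. The list of reinitiation, rescue and recycling held 8 genes, among them RACK1, GCN1, IMPACT and GSPT2, a paralog of the release factor GSPT1. None of the 8 was called in the edgeR test, against 31.8% of all genes tested. In DESeq2's Wald test none was called either (0 of 8), and 1 of 8, GSPT2, had an unadjusted p under 0.05 in edgeR. All 1 h libraries of GSPT2 lay below those at time 0, with a log2 fold change of -0.16 (adjusted p = 0.108). With upper-quartile normalization 4 of the 8 were lower, and 1 was lower with library totals and 1 without 1 h replicate 1. Of 8 mitochondrial translation factors 2 were called (25.0%, against 31.8% of all genes tested), as GUF1 rose by 0.55 (adjusted p = 0.0138) and MTIF3 fell by 0.38 (adjusted p = 0.0479). The call of GUF1 was lost without time 0 replicate 1. The call of MTIF3 was lost in DESeq2's Wald test and, with a library left out, was kept only without time 0 replicate 2.

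**Figure D4:**
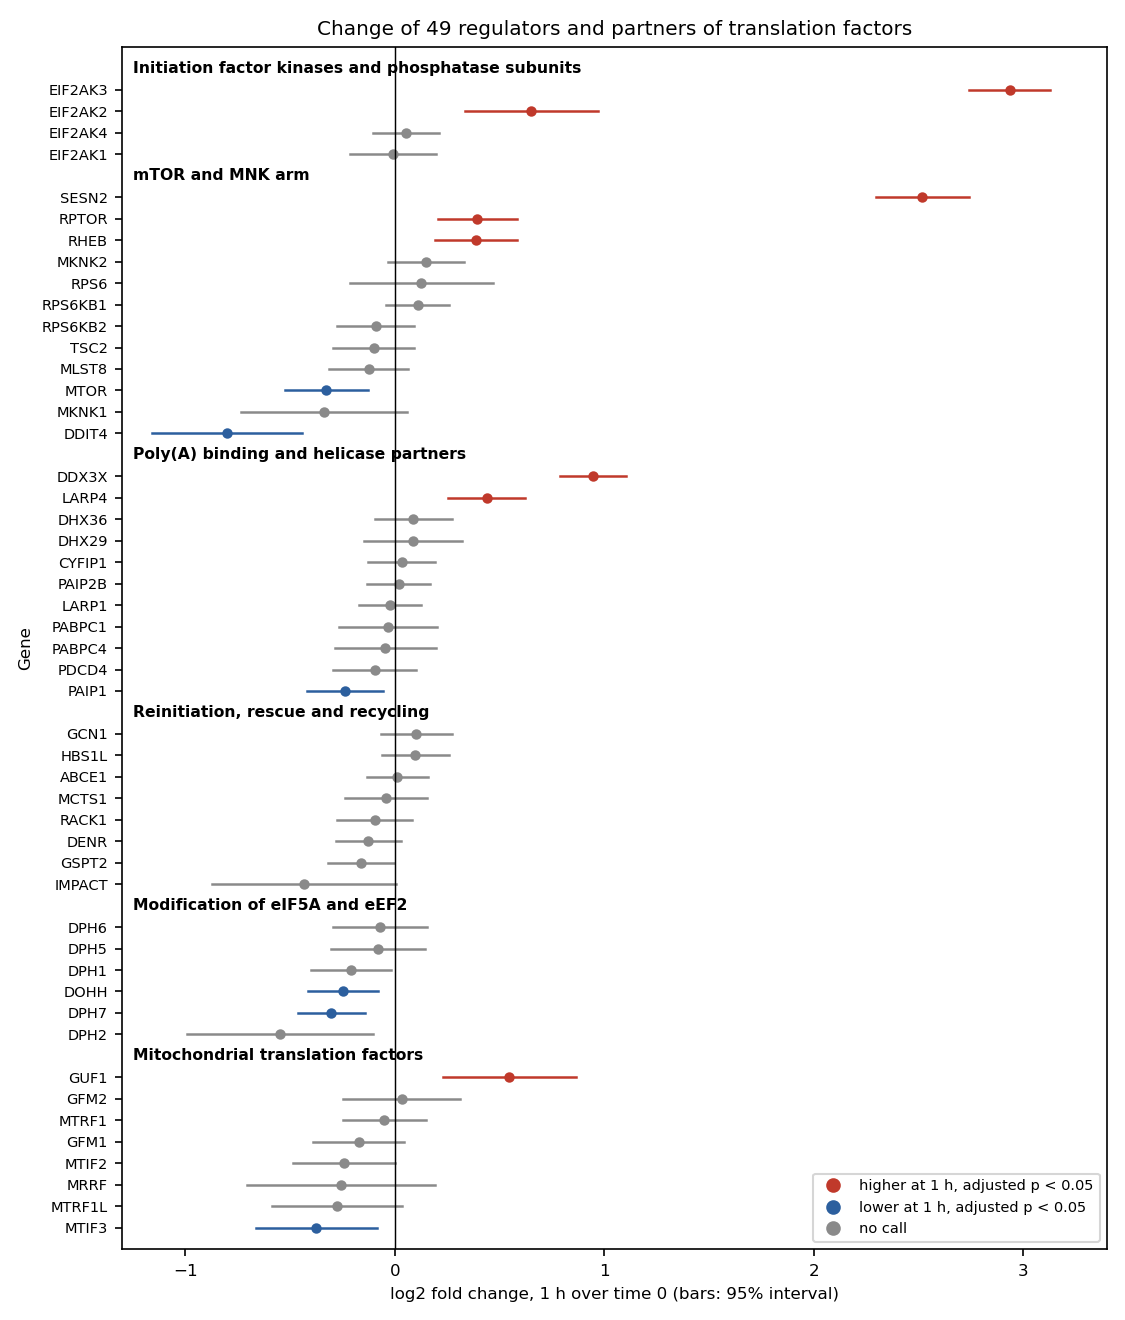
The log2 fold change of 1 h over time 0 is plotted for 49 regulators and partners of translation factors, grouped by role, with bars for 95% intervals. EIF2AK3 at 2.93 and SESN2 at 2.52 lie apart from the others, which range from -0.80 for DDIT4 to 0.95 for DDX3X.

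Some translation factor genes span small nucleolar RNAs (snoRNAs), short RNAs that guide the modification of ribosomal RNA and are processed from introns of their host genes. Of 9 snoRNA rows on the same strand within EIF4A2, EIF4G2, EIF5, EEF1B2 and EIF3A, 6 had enough counts for the test. Of these, 5 were higher at 1 h (83.3%, against 19.8% of all genes tested). This was noticed after the values were seen. Over the 9 rows the libraries held 264, 260 and 239 counts at 1 h and 60, 87 and 77 counts at time 0. Among all 30 snoRNA rows tested, 43.3% were called higher, and among the 24 outside these genes 8 were (33.3%). The median log2 fold change was 1.672 for the 6 rows inside these genes and 1.153 for the 24 outside.

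The snoRNA SNORA28 in EIF5 had 38, 42 and 46 counts at 1 h and 2, 11 and 5 counts at time 0, 2.67 higher on the log2 scale (SE 0.43, adjusted p = 0.000562), against 0.32 for the EIF5 row itself. SNORD97 in EIF4G2 had 99, 86 and 63 counts at 1 h and 19, 29 and 24 at time 0, and its log2 fold change was 1.68 (SE 0.27, adjusted p = 0.000608). In EIF4A2 the row of SNORD2 had 40, 49 and 47 counts at 1 h and 6, 11 and 13 at time 0, and rose by 2.06 (SE 0.33, adjusted p = 0.000579). SNORA81 in the same gene rose by 1.67 (SE 0.31, adjusted p = 0.00147) and the row RF00394 by 1.33 (SE 0.42, adjusted p = 0.0305), while SNORA63 had 0.75 (SE 0.40, adjusted p = 0.179).

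The libraries were enriched for poly(A) RNA, which mature snoRNAs lack, and the rows are 70 to 181 bases long, so that reads of unspliced host RNA and of snoRNA cannot be told apart in these counts. The call of RF00394 was lost in 8 of 14 alternatives, among them DESeq2's Wald test (adjusted p = 0.108).

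**Figure D5:**
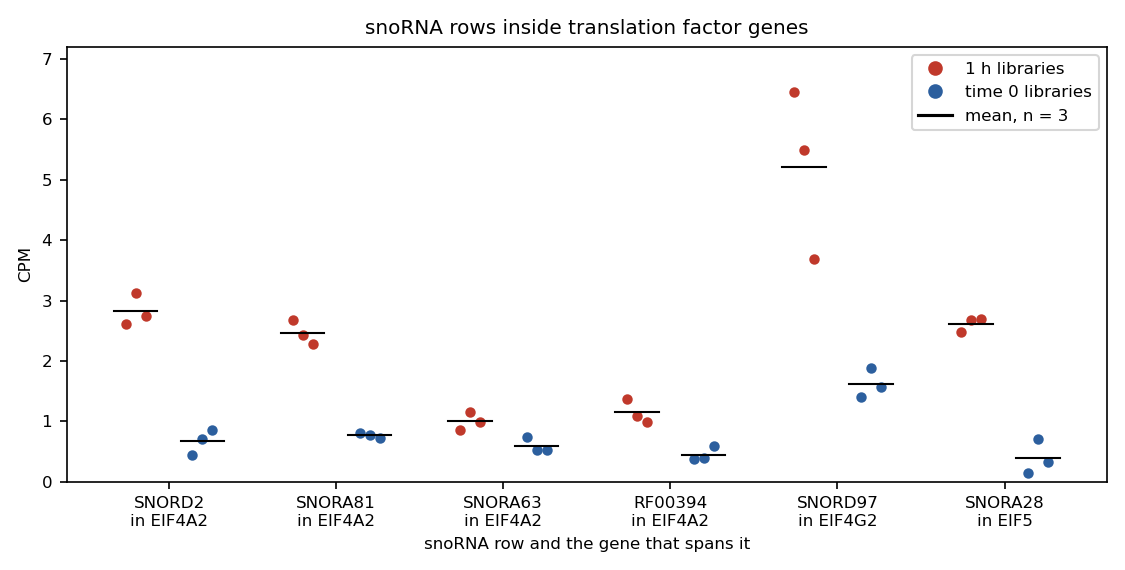
CPM in each library is plotted for the 6 snoRNA rows tested within translation factor genes, 1 h left of time 0, with a line for the mean of 3 libraries. In all 6 rows, noticed after the values were seen, the 1 h libraries lie above the time 0 libraries, against 25.4% of all genes tested. The median log2 fold change was 1.672 for these rows and 1.153 for the 24 snoRNA rows tested outside translation factor genes. SNORA28 in EIF5, for example, had 2.48 to 2.69 CPM at 1 h and 0.148 to 0.711 CPM at time 0.

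Of the 52 genes, 11 overlapped another protein coding gene in the coordinates of the table, 8 of them on the opposite strand, and no source states whether reads were counted by strand. EIF2D is the only one of these with a call. RASSF5, its neighbour on the opposite strand, had 2 to 9 counts at 1 h and 2 to 4 counts at time 0, against 763 to 870 and 830 to 892 counts for EIF2D.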

How the data were processed

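The authors deposited 1 table with raw counts per gene for 3 libraries at 1 h and 3 at time 0, made from poly(A) RNA. The submitters' processing notes name HISAT2 2.0.5, featureCounts 1.5.0-p3, StringTie 1.3.3b and DESeq2 1.20.0, while the genome build is not given in the sources used here. The other columns of the table, which hold counts divided by size factors, FPKM, fold changes and p-values of the authors, were not used, except gene length and coordinates.

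Counts were analysed in edgeR 4.0.16 with limma 3.58.1 and R 4.3.3 (filterByExpr, TMM, robust glmQLFit, glmQLFTest, Benjamini-Hochberg), and with DESeq2 1.42.0 as an alternative. The steps were also run on simulated counts in which few genes changed. That run cannot judge how the calls depend on the scaling. Standard errors were derived from the F statistic. Chi-square over its degrees of freedom between replicates was 8.13 to 15, so none was counted as a repeat deposit of another. This is no measure of their quality. A count of 3 corresponds to 0.175 to 0.221 CPM, counting error only. Replicates are labelled biological, and p-values measure the spread between these pools.

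The 100 CPM bound and the snoRNA description were chosen after the values were seen. The genes and lists were chosen with earlier results of these data known. Values per library were given for genes with a call and the 5 highest per length. They were also given for listed partners with a call and a log2 fold change of at least 1. Among paralogs, shares per library were given for EIF1 and EIF4E, and other shares as mean ± SD. EIF1AY, EIF3A, EIF3H and EIF4ENIF1 had no call and were given per library outside this rule. Not every gene without a call and without overlap was given in this way. Of 39 cell type markers listed, 27 had a row.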

Additional observations from a re-analysis of the deposited data

How the results depend on the processing

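The direction of all 11 called genes held in the 14 alternatives run for each gene. The 5 genes called higher and 6 called lower became 1 and 19 with upper-quartile normalization, and 0 and 1 when a log2 fold change of at least 0.5 was required. The related genes, 8 higher and 6 lower, had 18 lower with upper-quartile normalization, and 5 and 1 with the minimum fold change. Among all genes called, 62.2% were higher with TMM, 35.9% with upper-quartile normalization and 52.2% with library totals. With single libraries left out, translation factor genes higher numbered 3 to 5, with 3 without 1 h replicate 3, and those lower 3 to 5, with 3 in every such fit except that without time 0 replicate 2. Related genes lower numbered 3 to 6, with 3 without 1 h replicate 2 or time 0 replicate 1. Correlations of deviations were -0.079, 0.006 and -0.057 between libraries of the same replicate number, and -0.029 to 0.074 between those of different numbers. No pairing was seen, but with 3 libraries per group this cannot show that the samples were unpaired. A replicate block left 5 genes higher and 3 lower, and of the related genes 8 higher and 4 lower, without MTIF3 and PAIP1.

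Of the genes without a call, 18 changed sign. With upper-quartile normalization EIF1B was -0.018, EIF2B5 -0.098, EIF2S1 -0.124, EIF3B -0.108, EIF3I -0.116, EIF4G2 -0.001, EIF4G3 -0.009, EEF1B2 -0.050, EIF5A2 -0.026 and EEF1AKMT4 -0.030, and with library totals EIF2B5 was -0.008, EIF2S1 -0.034, EIF3B -0.018 and EIF3I -0.027. EIF2S1 was -0.005 with DESeq2, EIF2S1 -0.009 and EIF3I -0.002 without a filter, and EIF3E 0.001 with the replicate block. Leaving out each library gave -0.024 to 0.086 for EIF2B5, -0.033 to 0.043 for EIF2S1, -0.014 to 0.076 for EIF3B, -0.049 to 0.055 for EIF3E, -0.101 to 0.048 for EIF3F, -0.095 to 0.001 for EIF3G, -0.032 to 0.045 for EIF3I, -0.049 to 0.026 for EIF3J, -0.052 to 0.035 for EIF4E, -0.077 to 0.033 for EEF1A1, -0.042 to 0.695 for EEF1A2, -0.072 to 0.020 for EEF2 and -0.097 to 0.382 for EEF1AKMT4. The cause of these shifts was not tested. EEF1A2 and EEF1AKMT4, with SEs of 0.41 and 0.31, are the genes in which the counts and the spread limit the comparison most.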
